A study of Homo sapiens with 12 samples.

Results

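The genes of plasminogen activation and of several related serpins were followed through wild-type and MAPKAPK2-knockout melanoma cells, with and without the BET bromodomain inhibitor JQ1. They were chosen by symbol, as 8 of the 56609 gene symbols in the deposited table: PLAT, PLAU, PLAUR, SERPINE2, SERPINB2, SERPINI1, SERPINF1 and SERPINH1. The choice was made with earlier results of these data known. All 8 had counts. PLAU, with at most 6 counts in any library, was removed by the filter on low counts, so 7 were tested. Of these, SERPINB2 passed the filter only through its level in wild-type cells given JQ1.

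The cells were A375, an established human melanoma line, and the study's question was what loss of the kinase MK2 (gene MAPKAPK2) does to resistance against BET inhibition. There were 4 groups of 3 libraries: unedited cells with DMSO, unedited cells with 500 nM JQ1, CRISPR/Cas9 MAPKAPK2-knockout cells with DMSO, and knockout cells with 500 nM JQ1, each kept for 48 h. The titles call the DMSO groups untreated, and the treatment field was followed. The labels do not say whether the knockout was 1 clone or a pool, nor whether replicates were separate cultures. The p-values therefore measure the spread between these libraries, which may be technical.

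Plasminogen is a circulating zymogen that is cut to the broad protease plasmin by tissue-type activator (tPA, encoded by PLAT) or urokinase (uPA, encoded by PLAU). Urokinase acts at the cell surface bound to its receptor, encoded by PLAUR. Serpins inhibit such proteases by a suicide mechanism in which the enzyme cuts a reactive loop and is trapped. SERPINE2 (protease nexin-1), SERPINB2 (PAI-2) and SERPINI1 (neuroserpin) act on plasminogen activators or thrombin, whereas SERPINF1 (pigment epithelium-derived factor, PEDF) and SERPINH1 (the collagen chaperone HSP47) share the fold without inhibiting proteases. Melanoma cells are known to make tPA, and PEDF is known as an anti-angiogenic product of melanocytes.

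The 12 libraries held 25316565 to 34594025 estimated counts. MAPKAPK2 was at 89.6 ± 2.20 CPM (counts per 1000000 of the scaled library; SD, n = 3) in wild-type DMSO and at 12.4 ± 1.15 CPM in knockout DMSO, and it was likewise low in knockout JQ1 (14.4 ± 1.61 CPM). The third knockout JQ1 library stood apart. Its chi-square per degree of freedom was 28.1 and 29.7 against its replicates, where other replicate pairs gave 3.50 to 8.06, and 4 noncoding RNAs held 14.6% of its counts against 9.42% to 12.3% elsewhere. Of the melanocyte markers, SOX10 had group means of 437 to 563 CPM, while PMEL and MLANA had means of 0.335 to 1.18 CPM, TYR and TYRP1 had at most 9 counts in any library and DCT was below 1 CPM. The markers PTPRC, CD3E, CD14, EPCAM, KRT5 and CDH5, of blood, epithelial and endothelial cells, had at most 8 counts in any library. PECAM1, also an endothelial marker, had group means of 0.712 to 1.05 CPM, and the fibroblast gene DCN had 0.321 to 0.898 CPM. The summed level of the 8 melanocyte markers was 500.7 to 516.5 CPM with DMSO and 587 to 677.3 CPM with JQ1 in wild-type cells, and 460 to 534.6 CPM and 560.3 to 765.8 CPM in knockout cells. Of the other well-measured melanocyte markers, MITF was lower with the knockout in DMSO (43.1 against 28.8 CPM, log2 -0.58, edgeR adjusted p 0.000323) and in JQ1 (log2 -0.37, adjusted p 0.0102; 0.0534 with only those groups fitted), while S100B was higher (29.3 against 40.0 CPM in DMSO, log2 0.45, adjusted p 0.000403; log2 0.41 in JQ1, adjusted p 0.000756). The summed level of the 10 markers of other cell types, among which the fibroblast gene LUM and the keratinocyte gene KRT14 were highest with DMSO, ran from 7.51 to 8.69, 2.60 to 2.86, 7.21 to 8.22 and 2.03 to 3.39 CPM in the same order, so it was lower with JQ1. The part of these shifts in the results below was not tested. In bulk RNA, fewer cells of a type and less RNA per cell cannot be told apart.

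In outline, JQ1 was accompanied by more PLAT, SERPINE2 and SERPINI1 mRNA and less SERPINF1 and SERPINH1 mRNA in both genotypes. In edgeR's quasi-likelihood test, adjusted by the Benjamini-Hochberg method over 21698 genes, 5 of the 7 tested members passed an adjusted p of 0.05 in wild-type cells (3 higher, 2 lower). In that comparison 33.1% of all tested genes passed, 16.9% higher and 16.2% lower. In knockout cells PLAT, SERPINE2 and SERPINI1 likewise rose and SERPINF1 and SERPINH1 fell, 5 of 7, where 34.4% of tested genes passed (16.7% higher, 17.8% lower). The knockout itself was accompanied by more PLAT and less SERPINF1, under DMSO and under JQ1, and by no other call among the members. These were 2 of 7 members in each treatment, beside 7.92% of tested genes in DMSO (3.47% higher, 4.44% lower) and 8.57% in JQ1 (3.01% higher, 5.56% lower). Because the members were chosen with earlier results of these data known, their counts beside these shares are a description only. The median log2 fold change of the 7 members was 0.37 with JQ1 in wild-type cells and 0.28 in knockout cells, against -0.03 and -0.00 over all tested genes. For the knockout it was 0.06 in DMSO and 0.05 in JQ1, against -0.00 for all genes in both. These medians include SERPINB2, which entered the test only through its highest group. The 0.28 in knockout cells was SERPINB2's own value (SE 1.045), so the medians are a description only.

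**Figure D1:**
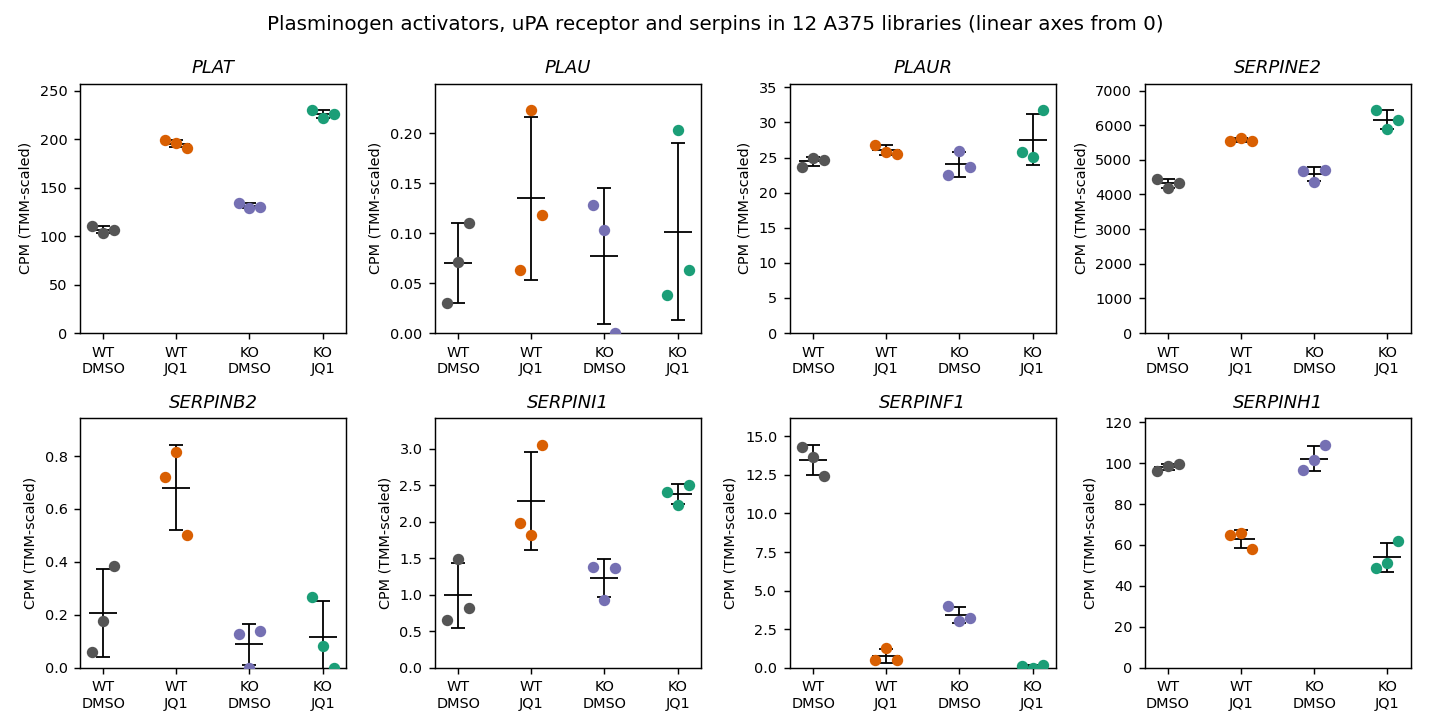
Level of each of the 8 genes (CPM, linear axes from 0) in every library, by genotype (WT, wild type; KO, MAPKAPK2 knockout) and treatment; points are libraries, horizontal bars the mean and whiskers 1 SD (n = 3, whiskers that pass 0 are cut at the axis). PLAT and SERPINE2 were higher and SERPINH1 lower in the JQ1 groups, and SERPINF1 was highest in wild-type DMSO (12.4 to 14.3 CPM).

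**Figure D2:**
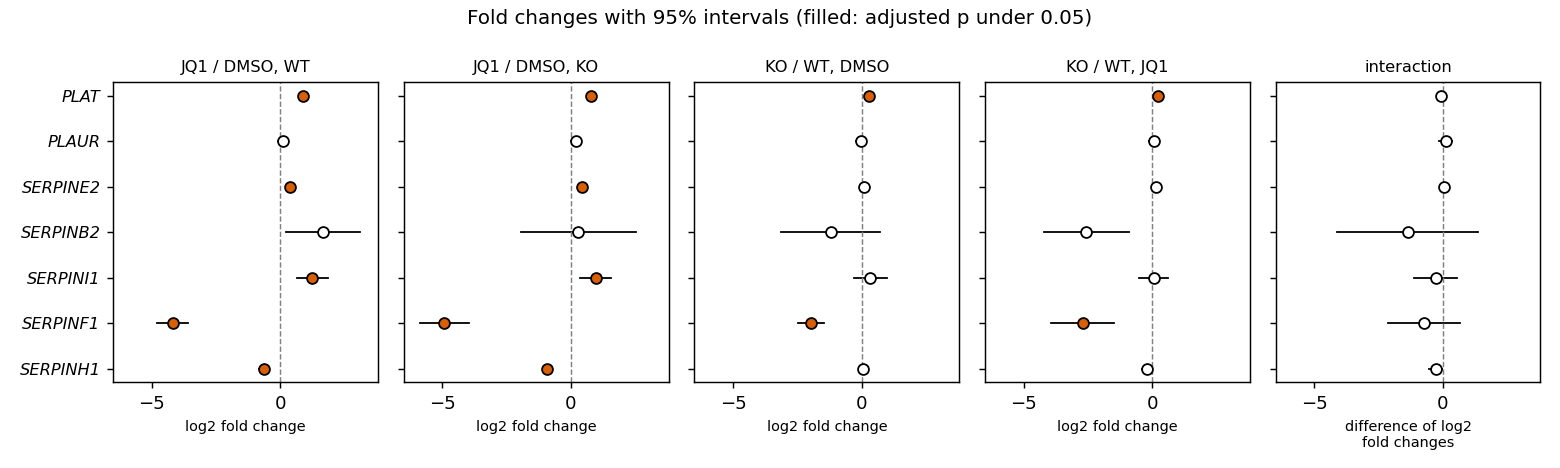
Log2 fold changes (x axis) of the 7 tested genes in the 4 simple comparisons, and the difference of the JQ1 effects between genotypes (interaction), with 95% intervals as lines and filled points where the adjusted p was under 0.05. PLAT and SERPINF1 were the members filled in all 4 simple comparisons, and no member was filled in the interaction.

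Between genes, levels were compared per kilobase of transcript, using the median length of each gene's coding transcripts. On that scale the mean level in wild-type DMSO was 2517 CPM per kilobase for SERPINE2, 105.7 for SERPINH1, 58.0 for PLAT and 33.0 for PLAUR. SERPINF1 followed at 20.7, SERPINI1 at 1.18, SERPINB2 at 0.272 and PLAU at 0.0302 CPM per kilobase. SERPINE2 mRNA thus led by far, and the mRNA of the activator tPA far exceeded that of urokinase. The order of PLAT and SERPINH1 depended on the length used: with each gene's longest transcript they were at 39.5 and 28.9 CPM per kilobase. The other positions were the same with both lengths.

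PLAT, on chromosome 8, encodes the secreted activator that is most active on fibrin. In wild-type DMSO its level was 110.5, 103.6 and 106.3 CPM in replicates 1, 2 and 3, and in wild-type JQ1 199.1, 196.5 and 191.1 CPM. Knockout DMSO gave 134.2, 129.2 and 130.4 CPM, and in knockout JQ1 229.8, 222.1 and 225.8 CPM. All 4 groups were separate from each other, in the order wild-type DMSO, knockout DMSO, wild-type JQ1, knockout JQ1. Non-overlap with JQ1 was also found for 50.4% of all tested genes in wild-type and 42.3% in knockout cells, and between genotypes for 29.6% in DMSO and 23.1% in JQ1. The rise with JQ1 was 1.83-fold in wild-type cells (log2 0.87, SE 0.05, adjusted p 7.90e-09 by edgeR's quasi-likelihood test) and 1.72-fold in knockout cells (log2 0.78, SE 0.05, adjusted p 1.66e-08). The knockout was 1.23-fold above wild type in DMSO (log2 0.30, SE 0.05, adjusted p 0.00109). In JQ1 it was 1.16-fold above (log2 0.21, SE 0.05, adjusted p 0.0123). That last call was lost without the third wild-type JQ1 library (adjusted p 0.0586), with no filter on low counts (0.111) and when only those 2 groups were fitted (0.0880). The JQ1 effect differed between genotypes by -0.09 on the log2 scale (95% interval -0.23 to 0.06, edgeR adjusted p 0.774).

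PLAU, on chromosome 10, was barely detected. Its 12 libraries held 0 to 6 counts each, with 7 counts in all under DMSO and 12 under JQ1 in wild-type cells, and 7 and 8 in knockout cells. Pooled over the 3 libraries, 7 counts correspond to 0.0713 CPM in wild-type DMSO (exact Poisson 95% interval 0.0287 to 0.147) and 12 counts to 0.130 CPM in wild-type JQ1 (0.0670 to 0.226). The intervals cover counting error only. The groups overlapped throughout, and a difference between them was not detectable at this depth. When the filter on low counts was left out, the smallest adjusted p that edgeR gave PLAU in any comparison was 0.635.

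PLAUR, on chromosome 19, encodes the GPI-anchored urokinase receptor and was measured well. Its level was 23.7, 24.9 and 24.7 CPM in wild-type DMSO and 26.8, 25.8 and 25.5 CPM in wild-type JQ1. It was 22.5, 26.0 and 23.6 CPM in knockout DMSO and 25.8, 25.1 and 31.7 CPM in knockout JQ1. The wild-type groups did not overlap, the knockout groups did, and the highest value came from the third knockout JQ1 library. No comparison passed: the log2 difference with JQ1 was 0.09 in wild-type cells (95% interval -0.10 to 0.28, edgeR adjusted p 0.470) and 0.20 in knockout cells (0.01 to 0.39, adjusted p 0.101). Without the second knockout JQ1 library the value in knockout cells was 0.26 and passed (adjusted p 0.0477), and with scaling by library totals alone the sign in wild-type cells turned (-0.04). The knockout differed from wild type by -0.02 in DMSO (-0.22 to 0.17) and by 0.08 in JQ1 (-0.11 to 0.27).

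SERPINE2, on chromosome 2, encodes a secreted and matrix-bound inhibitor of thrombin, urokinase and tPA, and took 0.446% to 0.606% of all counts of a library. It was at 4447, 4191 and 4320 CPM in wild-type DMSO and 5540, 5635 and 5551 CPM in wild-type JQ1. The knockout was at 4681, 4352 and 4715 CPM in DMSO and at 6427, 5888 and 6161 CPM in JQ1. The JQ1 libraries lay above all DMSO libraries of either genotype. The rise was 1.29-fold in wild-type cells (log2 0.37, SE 0.05, edgeR adjusted p 2.31e-05) and 1.34-fold in knockout cells (log2 0.43, SE 0.05, adjusted p 4.83e-06). Between genotypes the log2 difference was 0.09 in DMSO (95% interval -0.01 to 0.18, adjusted p 0.335), with overlapping groups. In JQ1 the groups did not overlap, and the difference was 0.14 (0.05 to 0.24, adjusted p 0.0702). It passed when genes with a mean under 1 CPM were removed (adjusted p 0.0416) and without the second knockout DMSO (0.0494) or the second knockout JQ1 library (0.0398).

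RefSeq lists a pair of transcription starts for SERPINE2 on GRCh38.p14. The 250 bases before the internal start are shown because they hold repeated E-box and CCAAT letters, given in capitals. Searched on both strands were the E-box CACGTG, its variant TCACATG and the CCAAT box, whose reverse complement is ATTGG. The window lies on the minus strand at chr2:224031479-224031728 and overlaps no exon of GENCODE release 29:
SERPINE2 internal start: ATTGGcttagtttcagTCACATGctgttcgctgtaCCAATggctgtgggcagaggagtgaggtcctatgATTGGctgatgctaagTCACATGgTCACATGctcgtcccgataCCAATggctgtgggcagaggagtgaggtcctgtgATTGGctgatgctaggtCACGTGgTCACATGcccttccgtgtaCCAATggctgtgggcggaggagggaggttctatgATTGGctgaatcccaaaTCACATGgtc
It held TCACATG 5 times, CCAAT 7 times and CACGTG once. Of the 35116 windows in the promoter table, each of 300 bases (250 before and 50 after a start), 3.36% held TCACATG at least once, 7.26% held CACGTG and 34.6% held CCAAT. This was the 1 window with 5 or more matches of TCACATG. That cut was this window's own count, and the window was picked for its repeats, so its rank is a description only. The letters around the matches recur along the window with few changes and at even spacing, so the matches are not independent of each other. The percentages for at least 1 match therefore do not measure how unusual these counts are. The window of the other SERPINE2 start held none of these 3 motifs. The counts are per gene, so they do not show which start was used.

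SERPINB2, on chromosome 18, encodes a mainly intracellular inhibitor of urokinase and was close to the detection limit. It was at 0.0596, 0.177 and 0.385 CPM in wild-type DMSO and 0.722, 0.816 and 0.503 CPM in wild-type JQ1. In knockout DMSO it was at 0.128, 0 and 0.140 CPM, and in knockout JQ1 at 0.267, 0.0812 and 0 CPM. These were 21, 62, 8 and 9 counts in all over the respective groups. A library at 0 allows up to 3 counts, or 0.103 CPM in the second knockout DMSO and 0.0950 CPM in the third knockout JQ1 library. The wild-type JQ1 libraries were above all others. No comparison passed in the fit of all groups: the log2 difference with JQ1 in wild-type cells was 1.66 (SE 0.67, edgeR adjusted p 0.0707), and that of knockout against wild type in JQ1 was -2.57 (SE 0.77, adjusted p 0.0534). Because SERPINB2 entered the test only through its highest group, these values and their alternatives are a description and support no call. The adjusted p of the JQ1 difference in wild-type cells fell under 0.05 with no filter (0.00823), with only those groups fitted (0.0132), without the third wild-type DMSO library (log2 2.52, adjusted p 0.0412) and without the third knockout JQ1 library (0.0353). That of the genotype difference in JQ1 did so with no filter (0.000660), with DESeq2 (0.0449), without the second knockout DMSO library (0.0483) and without the first knockout JQ1 library (log2 -4.08, adjusted p 0.0273).

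SERPINI1, on chromosome 3, encodes neuroserpin, a secreted tPA inhibitor best known from neurons. It was at 0.656, 1.49 and 0.825 CPM in wild-type DMSO and 1.98, 1.82 and 3.05 CPM in wild-type JQ1. In knockout DMSO it was at 1.38, 0.927 and 1.37 CPM, and in knockout JQ1 at 2.40, 2.23 and 2.50 CPM. JQ1 and DMSO libraries did not overlap in either genotype, whereas the genotypes overlapped in both treatments. The rise was 2.35-fold in wild-type cells (log2 1.23, SE 0.28, edgeR adjusted p 0.00347) and 1.94-fold in knockout cells (log2 0.95, SE 0.28, adjusted p 0.0151). The call in knockout cells was lost without the second knockout DMSO library (log2 0.79, adjusted p 0.0709). Between genotypes the log2 difference was 0.33 in DMSO (95% interval -0.31 to 0.98) and 0.05 in JQ1 (-0.50 to 0.61).

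SERPINF1, on chromosome 17, encodes secreted PEDF and had the largest fold changes among the 7 tested genes in the JQ1 comparisons. Its level was 14.3, 13.7 and 12.4 CPM in wild-type DMSO and 0.503, 1.30 and 0.473 CPM in wild-type JQ1. Knockout DMSO gave 4.01, 3.02 and 3.20 CPM, and in knockout JQ1 0.114, 0 and 0.190 CPM. The 4 groups did not overlap and went down through the sequence of groups in which PLAT went up. Relative to the wild-type DMSO mean, the level was 25.3% ± 3.91 in knockout cells with DMSO, 5.63% ± 3.48 in wild-type JQ1 and 0.753% ± 0.710 in knockout JQ1 (SD, n = 3). The last group held 9 counts in all, a pooled 0.109 CPM (exact Poisson 95% interval 0.0499 to 0.207).

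By edgeR's quasi-likelihood test, SERPINF1 was 18.3-fold lower with JQ1 in wild-type cells (log2 -4.19, SE 0.29, adjusted p 7.57e-08) and 30.3-fold lower in knockout cells (log2 -4.92, SE 0.45, adjusted p 1.02e-06). The knockout was 3.94-fold below wild type in DMSO (log2 -1.98, SE 0.24, adjusted p 8.53e-05) and 6.53-fold below in JQ1 (log2 -2.71, SE 0.58, adjusted p 0.00773). The folds that involve the groups with few counts moved with single libraries. Knockout against wild type in JQ1 was -2.12 without the second wild-type JQ1 library, -2.21 without the second knockout JQ1 library and -3.54 without the third. This call was lost when only those 2 groups were fitted (log2 -2.73, adjusted p 0.0531). The fall with JQ1 was -5.76 in knockout cells without the third knockout JQ1 library, and -4.77 in wild-type cells without the second wild-type JQ1 library. The JQ1 effect differed between genotypes by -0.73 (95% interval -2.15 to 0.69, adjusted p 0.826).

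The genes on either side of SERPINF1 in the GENCODE order, chosen after the values were seen, showed smaller differences. SERPINF2, the next gene and the one that encodes the plasmin inhibitor α2-antiplasmin, fell with JQ1 in wild-type cells (log2 -1.32, edgeR adjusted p 0.00218) and in knockout cells (log2 -1.32, adjusted p 0.00508), from a low level (1.11 ± 0.191 CPM in wild-type DMSO). Its genotype difference did not pass (-0.54 in DMSO, adjusted p 0.285). TLCD2 fell with JQ1 in wild-type cells (log2 -0.90, adjusted p 0.00111) and in knockout cells (log2 -0.49, adjusted p 0.0446), while WDR81, between SERPINF2 and TLCD2, and RPA1 passed in no comparison. SMYD4, on the other side, rose with the knockout under JQ1 by 0.45 (adjusted p 0.00488). RTN4RL1, beyond RPA1, was lower with JQ1 in wild-type cells (log2 -1.82, edgeR adjusted p 0.0248), from 0.458 ± 0.152 CPM. RTN4RL1 passed the filter on low counts only through its level in wild-type DMSO, so this difference is a description and supports no call. The TLCD2 call in knockout cells was lost in most alternatives. Among them were DESeq2 (adjusted p 0.0567), no filter on low counts (edgeR 0.0577) and leaving out the second knockout JQ1 library (log2 -0.33, edgeR 0.176). The RTN4RL1 difference no longer passed when any 1 of 3 libraries was left out (edgeR adjusted p 0.121 without the third wild-type DMSO library).

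SERPINH1, on chromosome 11, encodes the procollagen chaperone of the endoplasmic reticulum. Its level was 96.4, 98.4 and 99.5 CPM in wild-type DMSO and 64.8, 65.8 and 57.8 CPM in wild-type JQ1. In knockout DMSO it was 96.5, 101.3 and 108.8 CPM, and in knockout JQ1 48.5, 51.2 and 61.9 CPM. All JQ1 libraries lay below all DMSO libraries, and the 2 genotypes overlapped within each treatment. The fall was 1.56-fold in wild-type cells (log2 -0.64, SE 0.08, edgeR adjusted p 3.52e-05) and 1.89-fold in knockout cells (log2 -0.92, SE 0.08, adjusted p 1.11e-06). The difference between these effects was -0.28 (95% interval -0.53 to -0.02), with an unadjusted p of 0.0343 and an adjusted p of 0.544. Under JQ1 the log2 difference of knockout from wild type was -0.22 (adjusted p 0.146), and without the third knockout JQ1 library -0.33 (adjusted p 0.00472).

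No member passed the test of the interaction by edgeR, 1 had an unadjusted p under 0.05 (SERPINH1), and DESeq2 called none, where edgeR called 0.134% of all tested genes (0.0323% higher, 0.101% lower). At this depth and n, a difference between genotypes in the JQ1 response of these genes was not detected after adjustment. The intervals given for PLAT, SERPINF1 and SERPINH1 bound its size. That of SERPINH1 was wholly negative, and over the alternatives its difference ran from -0.39 to -0.21 (lowest adjusted p by edgeR or DESeq2 0.0718). Without the third knockout JQ1 library edgeR called 88 of 22273 genes for the interaction, against 29 of 21698 with it, and no member.

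Short matches of other motifs in the promoter windows are given for members at which they fell, as letters only. Windows were found for 6 of the 8 members. The AP-1 motif TGANTCA, present in 7.71% of all windows, was in the windows of PLAUR and SERPINB2, genes described in other cells as AP-1 targets. The heat shock element core GAANNTTC, present in 6.77%, was in a SERPINH1 window, a gene known to respond to heat shock. Each is shown with its flanks, the motif in capitals:
PLAUR (chr19:43670337-43670366, minus strand, RefSeq GRCh38.p14): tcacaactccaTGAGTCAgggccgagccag
SERPINB2 (chr18:63887592-63887621, plus strand): gagtaaaatgtTGAATCActcaaaggacac
SERPINH1 (chr11:75562171-75562200, plus strand): ccaactttccaGAAGTTTCtcgggacgggc
The matches lay 186, 102 and 71 bases before the start, respectively, and say nothing of factor binding in these cells.

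Because PLAT and SERPINE2 rose together, the balance of activator and inhibitor mRNA was examined within each library, which needs no scaling. PLAT per 100 SERPINE2 counts was 2.48, 2.47 and 2.46 in wild-type DMSO and 3.59, 3.49 and 3.44 in wild-type JQ1. It was 2.87, 2.97 and 2.77 in knockout DMSO and 3.58, 3.77 and 3.67 in knockout JQ1. PLAT thus rose by more than SERPINE2, by 0.50 on the log2 scale with JQ1 in wild-type cells and by 0.36 in knockout cells, without overlap. The knockout lay above wild type by 0.21 in DMSO, without overlap, and by 0.07 in JQ1, with overlap. Each of the first 3 had an exact two-sided permutation p of 0.1, the smallest that 3 against 3 libraries allow, and 0.133 after adjustment over 8 comparisons. The last had an exact p of 0.2 (adjusted 0.229).

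SERPINH1 per 100 SERPINE2 counts moved the other way. It was 2.17, 2.35 and 2.30 in wild-type DMSO and 1.17, 1.17 and 1.04 in wild-type JQ1, then 2.06, 2.33 and 2.31 in knockout DMSO and 0.755, 0.870 and 1.01 in knockout JQ1. The log2 difference with JQ1 was -1.01 in wild-type and -1.35 in knockout cells (exact permutation p 0.1 each). Between genotypes it was -0.03 in DMSO (exact p 0.7) and -0.37 in JQ1 (exact p 0.1).

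**Figure D3:**
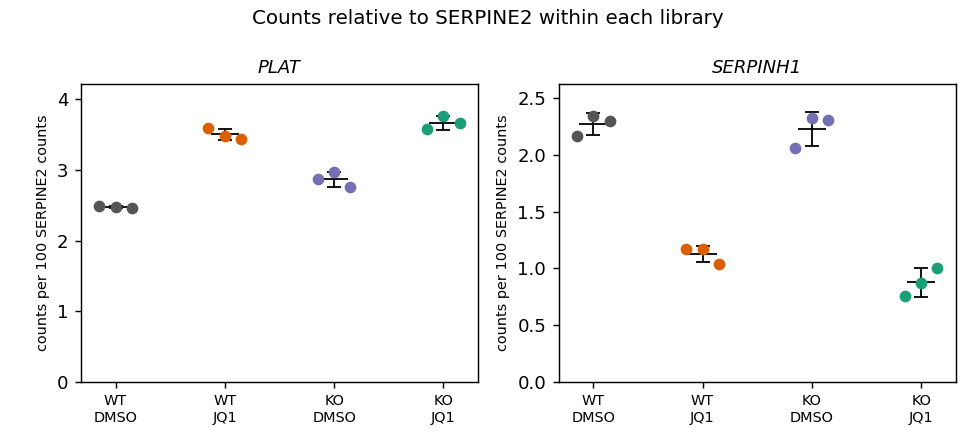
Counts of PLAT (left) and SERPINH1 (right) per 100 SERPINE2 counts in each library, by genotype (WT, KO) and treatment; points are libraries, bars the mean and whiskers 1 SD (n = 3, axes from 0). PLAT ran from 2.46 to 2.48 in wild-type DMSO and from 3.44 to 3.59 in wild-type JQ1, and SERPINH1 fell in both JQ1 groups.

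Across the 12 libraries, log2 levels of PLAT and SERPINE2 were positively correlated (Pearson r 0.980) and those of PLAT and SERPINF1 negatively (-0.974). These values describe 12 libraries in 4 groups that share the same treatments, and no p is given. Among 15404 other genes whose mean reached 1 CPM, those most like PLAT over the 12 libraries were APLP2 (r 0.996), ACO1 (0.995) and SPECC1 (0.994). Those most like SERPINE2 were CDR2 (0.991), KDELR2 (0.991), which encodes a receptor that returns proteins to the endoplasmic reticulum, and C7orf50 (0.988). SERPINF1 was followed by TIMP3 (0.985), an inhibitor of matrix metalloproteinases, KLF9 (0.984) and DUSP9 (0.984), and SERPINH1 by EEF1A2 (0.990), DOCK1 (0.990) and PCOLCE (0.989), which encodes an enhancer of procollagen processing. For SERPINI1 the highest values were 0.920 for SARAF, 0.918 for AL590428.1 and 0.911 for AL162231.1.

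The size of the change could differ between genes with a like pattern. With DMSO and JQ1 respectively, TIMP3 was at 1042 ± 20.4 and 530 ± 21.4 CPM in wild-type cells and at 772 ± 56.6 and 433 ± 36.3 CPM in knockout cells (SD, n = 3). Its log2 fold change with JQ1 in wild-type cells was -0.98 (edgeR adjusted p 5.94e-08), beside -4.19 for SERPINF1. PCOLCE fell with JQ1 in wild-type cells (log2 -0.77, adjusted p 3.98e-05) and in knockout cells (log2 -1.11, adjusted p 1.29e-06), beside -0.64 and -0.92 for SERPINH1.

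Genes listed for plasminogen binding or activator clearance rose at the mRNA level with JQ1 more often than they fell. Of 14 listed genes 13 were tested, and with JQ1 8 rose and 2 fell in wild-type cells, and 8 rose and 1 fell in knockout cells, with median log2 fold changes of 0.29 and 0.35. Over all tested genes 16.9% rose and 16.2% fell in wild-type cells, and 16.7% and 17.8% in knockout cells. This list and those below were also chosen with earlier results of these data known, so their counts are a description only. ANXA2, whose protein binds plasminogen and tPA together, rose from 319 ± 11.5 to 637 ± 20.3 CPM in wild-type cells (SD, n = 3; log2 1.00, edgeR adjusted p 4.51e-09) and by 0.91 in knockout cells (adjusted p 8.52e-09). S100A10, its partner in that complex, named after its values were seen, rose by 0.78 (adjusted p 2.63e-05) and 0.98 (adjusted p 3.02e-06). ITGB3, the integrin β3 subunit, rose by 1.00 (adjusted p 3.27e-08) and 1.05 (adjusted p 1.38e-08), and ENO1, an enolase that also binds plasminogen at the surface, rose by 0.46 in wild-type cells (adjusted p 2.43e-06). VLDLR, an endocytic receptor of protease-serpin complexes, rose by 0.67 in wild-type cells (adjusted p 1.77e-05) and by 1.28 in knockout cells (adjusted p 3.75e-08). The difference between these VLDLR effects was 0.61 (unadjusted p 0.000117) and did not pass (adjusted p 0.0667). It was the 1 gene of the list with an unadjusted p under 0.05 for the interaction, where edgeR called 0 and DESeq2 called 1 gene of the list.

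The clearance receptors did not move as a block. LRP1, the main scavenger of tPA and of activator-inhibitor complexes, named after its values were seen, fell with JQ1 in wild-type cells (log2 -0.56, edgeR adjusted p 0.00906) and in knockout cells (log2 -0.62, adjusted p 0.00512), while its chaperone gene LRPAP1 rose by 0.73 and 0.76 (adjusted p 7.27e-06 and 3.67e-06). With the knockout, 1 gene of this list rose and 2 fell in DMSO, and 1 rose and 1 fell in JQ1, beside 7.92% of all tested genes called in DMSO and 8.57% in JQ1. SORL1, a sorting receptor related to the LDL receptor family, fell in DMSO (log2 -1.69, adjusted p 0.00482) and in JQ1 (log2 -1.88, adjusted p 0.00992), from 1.29 ± 0.196 CPM. VLDLR fell in DMSO (log2 -0.64, adjusted p 0.000220), and its difference in JQ1 was -0.03 (adjusted p 0.884). ENO1 was higher by 0.19 in knockout DMSO (adjusted p 0.0181), and LRPAP1 by 0.29 in knockout JQ1 (adjusted p 0.0356). Both calls depended on single libraries: without the second wild-type DMSO library the adjusted p of ENO1 was 0.0779, and without the third wild-type JQ1 library that of LRPAP1 was 0.139.

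The substrate gene and the other proteases had few or no counts. The plasminogen gene PLG had 0 counts in all 12 libraries, as did KLKB1, F11 and F7, which allows up to 3 counts (0.0825 to 0.122 CPM) in each; 4 of the 12 listed proteases were tested. HPN, a transmembrane serine protease, fell with JQ1 in wild-type cells (from 2.34 ± 0.280 to 0.861 ± 0.261 CPM, log2 -1.45, edgeR adjusted p 0.000563). In knockout cells its difference was -0.68 (adjusted p 0.0528, overlapping groups), and the interaction did not pass (adjusted p 0.609). F3, the gene of tissue factor, rose by 0.69 in knockout cells (edgeR adjusted p 0.0388), a call lost in several alternatives. Among them were scaling by library totals (edgeR adjusted p 0.0867), fitting only those groups (0.0573) and leaving out the second knockout DMSO library (log2 0.46, 0.170). In wild-type cells the F3 difference was 0.58 (adjusted p 0.0698). These were 1 called gene of 4 in each genotype, beside the 33.1% and 34.4% of all tested genes. No gene of the list was called between genotypes by edgeR or DESeq2, with 1 at an unadjusted p under 0.05 in DMSO and 0 in JQ1.

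Among the other inhibitors of plasmin and its activators, 6 of the 11 analysed here were tested. With JQ1, 1 rose and 4 fell in wild-type cells and 1 rose and 5 fell in knockout cells, with median log2 fold changes of -1.62 and -1.82. With the knockout, 0 rose and 3 fell in each treatment, with medians of -0.71 in DMSO and -0.63 in JQ1. Over all tested genes 16.2% (wild type) and 17.8% (knockout) fell with JQ1, and 4.44% (DMSO) and 5.56% (JQ1) fell with the knockout. A2M, encoding the broad protease trap α2-macroglobulin, was at 77.2 ± 8.09 CPM with DMSO and 20.4 ± 1.05 CPM with JQ1 in wild-type cells, and at 20.2 ± 1.64 and 4.06 ± 0.666 CPM in knockout cells (SD, n = 3). It fell with JQ1 in wild-type (log2 -1.92, edgeR adjusted p 5.04e-09) and knockout cells (log2 -2.33, adjusted p 3.60e-09). With the knockout it fell in DMSO (log2 -1.93, adjusted p 2.23e-08) and in JQ1 (log2 -2.34, adjusted p 1.81e-08). Like SERPINF1, it was lower with the drug and with the knockout, and lowest with both. The comparisons that share a group share its libraries.

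TFPI2, a Kunitz-type inhibitor of plasmin, rose with JQ1 by 1.23 in wild-type cells (17.8 ± 0.144 to 41.8 ± 1.51 CPM, edgeR adjusted p 2.19e-07) and by 1.39 in knockout cells (adjusted p 1.01e-07). It fell with the knockout in DMSO (log2 -0.88, adjusted p 5.53e-05) and in JQ1 (log2 -0.72, adjusted p 0.000154). TFPI, the inhibitor of the tissue factor pathway, fell with JQ1 in wild-type cells from 4.73 ± 0.262 to 0.543 ± 0.127 CPM (log2 -3.10, adjusted p 3.09e-07), and in knockout cells likewise (log2 -2.84, adjusted p 1.18e-06). SPINT1 fell with the knockout in DMSO (log2 -1.55, adjusted p 0.0248), a call lost without any 1 of 5 libraries, as with the second wild-type DMSO library left out (-1.43, adjusted p 0.105). SERPINA5, protein C inhibitor, was lower in knockout JQ1 (log2 -0.24, adjusted p 0.0428), a call lost without any 1 of 11 libraries (adjusted p 0.209 without the second wild-type JQ1 library).

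Of the 27 other serpin genes listed, 11 were tested. With JQ1, 3 rose and 3 fell in wild-type cells and 3 rose and 1 fell in knockout cells; with the knockout, 2 rose and 2 fell in DMSO and 1 rose and 1 fell in JQ1. These were 6 and 4 of 11 with JQ1, where 33.1% and 34.4% of all tested genes were called, and 4 and 2 of 11 with the knockout, where 7.92% and 8.57% were. The 6 include SERPINA6, which passed the filter only through its level in wild-type DMSO and supports no call. SERPINA3, the acute-phase gene of α1-antichymotrypsin, was at 856 ± 45.3 CPM with DMSO and 1378 ± 81.7 CPM with JQ1 in wild-type cells, and at 1506 ± 56.5 and 2190 ± 108 CPM in knockout cells (SD, n = 3). It rose with JQ1 by 0.69 (edgeR adjusted p 5.65e-07) and 0.54 (adjusted p 4.58e-06) and with the knockout by 0.81 (adjusted p 5.24e-07) and 0.67 (adjusted p 3.21e-06). SERPIND1, the thrombin inhibitor heparin cofactor II, fell with JQ1 in wild-type (log2 -1.07, adjusted p 9.66e-05) and knockout cells (log2 -1.05, adjusted p 0.000144).

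The remaining calls among these serpins were of smaller size or rested on few counts. SERPINB1, an inhibitor of neutrophil proteases, rose with JQ1 by 0.44 in wild-type cells (edgeR adjusted p 0.000281) and by 0.27 in knockout cells (adjusted p 0.0108). SERPINB6 rose by 0.36 in wild-type cells (adjusted p 0.000288) and by 0.21 in knockout cells (adjusted p 0.0107). Without the second knockout DMSO library the calls in knockout cells were lost for SERPINB1 (adjusted p 0.0721) and SERPINB6 (0.0565). With the knockout in DMSO, SERPINB6 was higher by 0.29 (adjusted p 0.00581).

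SERPINB7, at 0.919 ± 0.108 CPM in wild-type DMSO, fell with JQ1 in wild-type cells (log2 -1.81, edgeR adjusted p 0.00813) and was lower in knockout DMSO (log2 -2.01, adjusted p 0.0179). The latter call was lost without any 1 of 4 libraries, for instance the first knockout DMSO library (log2 -1.70, adjusted p 0.0841). SERPINA6, named after its values were seen, was lower with JQ1 in wild-type cells (log2 -2.08, edgeR adjusted p 0.0123), from 55 to 12 counts over the 3 libraries. SERPINA6 passed the filter on low counts only through its level in wild-type DMSO, so these values are a description and support no call. Without the first wild-type DMSO library its edgeR adjusted p was 0.0712 (log2 -1.72). SERPINA1, encoding α1-antitrypsin, was lower with the knockout in DMSO (log2 -0.66, adjusted p 0.0244) and in JQ1 (log2 -0.80, adjusted p 0.00693). Its call in DMSO was lost without any 1 of 4 libraries, with an adjusted p of 0.107 without the third wild-type DMSO library.

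**Figure D4:**
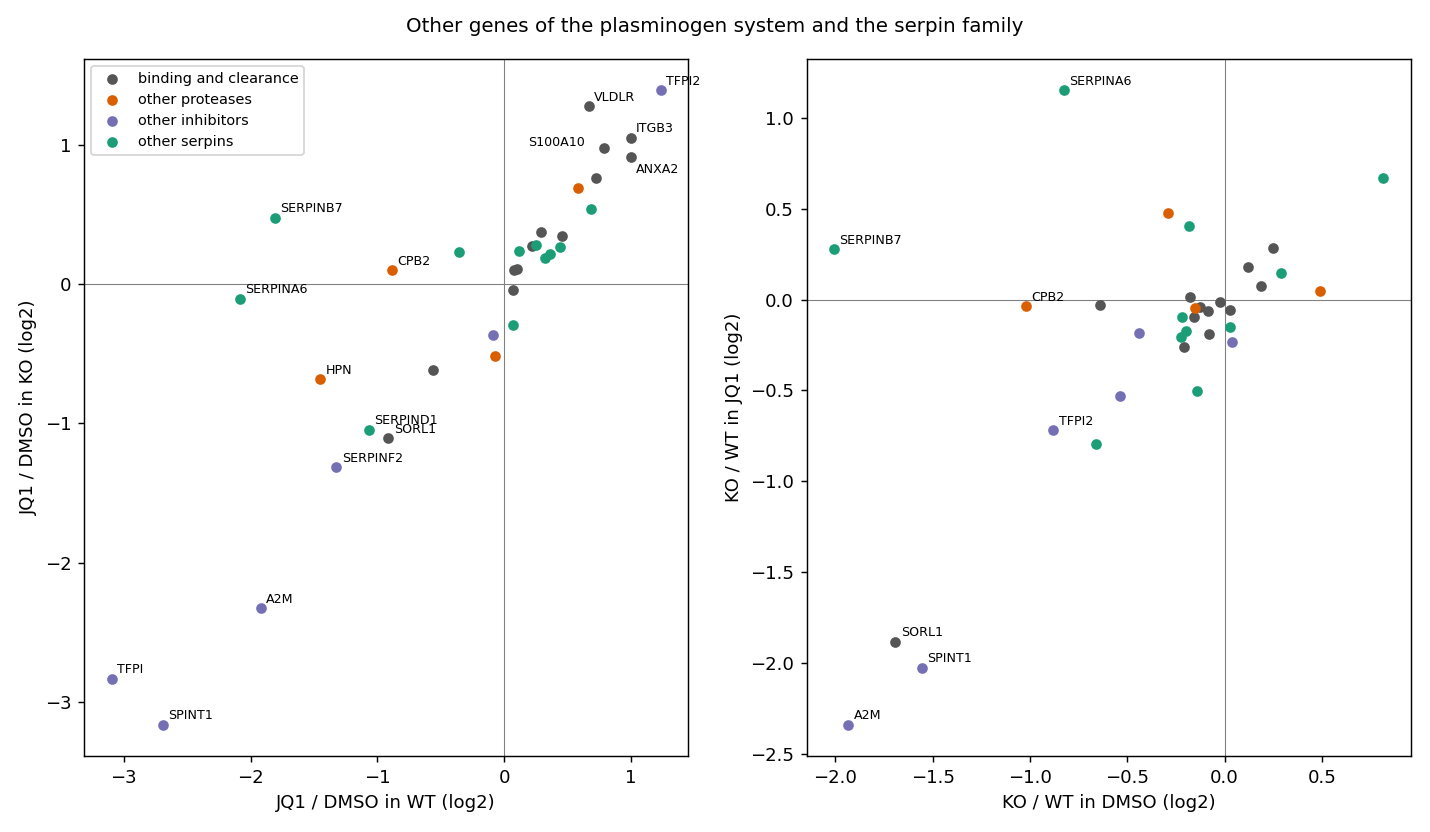
Log2 fold changes of the tested genes of 4 lists, one point per gene: left, JQ1 against DMSO in wild-type (x) and knockout cells (y); right, knockout against wild type in DMSO (x) and JQ1 (y); genes beyond 0.85 in either direction are named. A2M lay at -1.92 and -2.33 on the left and at -1.93 and -2.34 on the right, and TFPI2 at 1.23 and 1.39 on the left.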

How the data were processed

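RNA of A375 cells (12 samples, 4 groups of 3, grouped by the genotype and treatment labels) was depleted of ribosomal RNA and made into directional libraries, per the labels' protocols. The authors deposited estimated counts per gene symbol, which need not be whole, and a normalized signal for 32828 genes; each deposited signal value was the count, rounded, over a factor that varied by gene and by library. The submitters' processing notes name Trim Galore, cutadapt, FastQC, MultiQC, kallisto, DESeq2 and the build GRCh38.p10, without roles. Whether counting used the strand is not given in the sources used here, so overlapping and antisense genes are uncertain.

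Estimated counts were rounded; the design had allowed for this. Genes with low counts were removed with filterByExpr (minimum count 10 over the 4 groups), which left 21698 genes. All 12 libraries (25316565 to 34594025 counts, TMM factors 0.926 to 1.06) entered 1 model with a mean per group, fitted with edgeR 4.0.16's quasi-likelihood functions (limma 3.58.1, R 4.3.3; prior count 0.125), two-sided, with Benjamini-Hochberg adjustment over all tested genes and a threshold of 0.05. The 5 contrasts were JQ1 against DMSO per genotype, knockout against wild type per treatment, and their interaction. The edgeR fit was tested on simulated counts for JQ1 against DMSO in wild-type cells, with changes set only in genes with higher counts. The other steps were not tested in this way. Ratios were compared by exact permutation tests. Likeness was Pearson's r of log2(CPM + 0.5). Transcript lengths and gene order came from GENCODE release 29, and sequences from RefSeq (GRCh38.p14), matched by symbol.

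The text names the 8 members, MAPKAPK2, up to 3 called genes per list and contrast with the smallest adjusted p, and the 3 genes most like each called member; 1 gene of that rule is not reported here and was taken out of its list. The members and lists were chosen with earlier results of these data known. The alternatives included DESeq2 1.42.0, other scalings and filters, a stricter threshold, fitting only the groups compared, a replicate block, and leaving out each library.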

Additional observations from a re-analysis of the deposited data

How the results depend on the processing

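The 21 alternatives comprised 9 other settings and 12 fits that each left out a library. The count of members called was 5 with JQ1 in either genotype, 2 for the knockout in DMSO and 0 for the interaction, and it stayed within 1.5 times that count in every alternative run. With JQ1 in wild-type cells it reached 6 in 4 alternatives, each time through SERPINB2, whose values support no call. For the knockout in JQ1 the count was 2, but 1 at an adjusted p of 0.01, 0 when only the 2 groups were fitted, and 1 (without the third wild-type JQ1 library) to 4 (without the second knockout DMSO library) with a library left out. That 4 included SERPINB2, whose values support no call. By the authors' normalized values, PLAT in knockout JQ1 was at 218.5% and SERPINE2 in wild-type JQ1 at 130.4% of the wild-type DMSO mean, against 211.5% and 129.1%. Scaling by library totals turned the PLAUR difference with JQ1 in wild-type cells to -0.037. Of 720 member results, 692 kept direction and side of the threshold, 13 newly passed, 7 no longer passed and 8 turned sign. Of the 13, 4 were SERPINB2 with JQ1 in wild-type cells and 4 were SERPINB2 with the knockout in JQ1, which support no call. With 1 library left out, log2 differences that turned sign ran, for PLAUR, from -0.068 to 0.031 (knockout in DMSO), -0.034 to 0.14 (knockout in JQ1) and -0.0095 to 0.17 (interaction), and for SERPINB2 from -1.23 to 0.94 (JQ1 in knockout). They ran from -0.080 to 0.32 for SERPINI1 (knockout in JQ1). None of these had passed. Of 72 calls of other named genes, none turned sign in 1500 results, and 102 of those no longer passed. The 72 include SERPINA6 and RTN4RL1 with JQ1 in wild-type cells, whose values support no call.

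Correlations of deviations between same-numbered libraries ran from -0.359 to 0.317. Differently numbered libraries were not compared, so whether replicate numbers pair the samples was not determined. With a replicate block, the members called were 5, 5, 2, 2 and 0, and LRPAP1 (adjusted p 0.0625), SERPINA5 (0.0696) in knockout JQ1, SPINT1 in knockout DMSO (0.0559) and TLCD2 with JQ1 in knockout cells (0.0701) no longer passed. Depth limits PLAU, SERPINB2 and, in JQ1, SERPINF1.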
